A study of Homo sapiens with 12 samples.

Results

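H3K27me3 was compared between T24 cells that received fenretinide (5 µM, 72 h) and T24 cells that received vehicle (DMSO), with 1 ChIP-seq library on each side, 2 of the 12 samples of the series. They were chosen by their labelled mark and treatment. T24 is an established human bladder cancer cell line. A second pair of H3K27me3 libraries also differed by fenretinide, at the same dose and time: cells that received fenretinide with the EZH2 inhibitor GSK-126 (5 µM each, 72 h, below "combination"), and cells that received GSK-126 alone (5 µM, 72 h). It shared no library with the first pair. All 4 cultures were of the same line, and no label names a clone, a passage or a spike-in. The remaining 8 samples are 4 inputs and 4 RNA-seq libraries, not analysed here, so expression of bladder markers was not used to check the cells. With 1 library a side no difference has a replicate check and no p-value is given. Every interval in brackets is a 95% Clopper-Pearson counting interval, which covers counting error only and compares libraries, not conditions.

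H3K27me3 is a histone mark placed by EZH2 within Polycomb repressive complex 2, and it covers silent developmental genes in broad domains. Retinoids enter cells in part through STRA6, are held by binding proteins, and are broken down by CYP26 enzymes. Retinoic acid acts through heterodimers of RAR and RXR receptors bound to paired half-sites in DNA, with CYP26A1 and RARB among their classic targets. Fenretinide is a synthetic retinoid derived from retinoic acid that is also known to inhibit dihydroceramide desaturase, the enzyme encoded by DEGS1.

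The fenretinide library held 18928836 fragments in the 273664 deposited intervals, and the vehicle library 17133107. The combination library held 15812933 and the GSK-126 library 16156194. A ratio below divides the share of all interval fragments found at a site in 1 library by the share found there in the other, so it describes where the mark lay and not its total amount. An interval was measured with at least 20 fragments in both libraries together, and a gene, as the sum of intervals under peaks within 10 kb of its transcription start site (TSS), with at least 50. A ratio of at least 2 was called higher and a ratio of at most 0.5 lower, where the counting interval excluded 1. Of 13817 measured genes, 235 (1.70%) were lower in fenretinide cells and 35 (0.253%) higher. Across genes the median log2 ratio was -0.15, and 69.1% of genes lay below 0. Falls outnumbered rises near genes under the 4 other scalings tried: DESeq2 size factors gave 19 higher and 360 lower, edgeR TMM factors 17 and 380, scaling to low-density intervals of the 2 libraries 5 and 1316, and scaling to low-density intervals of all 4 libraries, chosen after seeing the data, 16 and 404. Those scalings moved every log2 ratio by -0.10, -0.12, -0.40 and -0.13, so list medians below are set against the median of all genes. Each lowered every ratio and so could only add falls and remove rises. The larger number of falls under them is therefore no check. Genes that were lower covered a median interval length of 4.90 kb, those that were higher 5.88 kb and the rest 14.8 kb. Calls were thus made mostly at genes with short marked stretches.

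Among genes of retinoid uptake, binding, synthesis and breakdown, the mark fell near STRA6 and CYP26A1 and passed the rule nowhere else: 0 of 23 measured members were higher, 2 lower and 21 neither, of 36 on the list. Their median log2 ratio was -0.14, beside -0.15 for all genes. STRA6, the receptor for vitamin A uptake, had 48 fragments in fenretinide cells and 92 in vehicle cells, a ratio of 0.472 (0.326 to 0.677). CYP26A1, the enzyme that clears retinoic acid, had 72 and 132 fragments, a ratio of 0.494 (0.365 to 0.663). Of all genes 1.70% were lower. Without the TSS limit neither passed, at 0.628 for STRA6 and 0.812 for CYP26A1.

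The rest of the pathway list spread to both sides. RBP4, which carries retinol in blood, had 105 fragments in fenretinide cells and 159 in vehicle cells, at 0.598 (0.463 to 0.770), and CYP26B1, a further retinoic acid hydroxylase, had 23 and 38, at 0.548 (0.312 to 0.943). ALDH1A1 and ALDH1A2, enzymes that make retinoic acid, were at 1.06 and 1.07. DHRS4, a retinal reductase, stood highest with 158 and 89 fragments, at 1.61 (1.23 to 2.11). Of the 20 genes named whatever their values, 10 had no interval within 10 kb: RARA, RXRA, RXRB, CYP26C1, TGM2, RARRES1, H19, EZH2, CDKN1A and CDKN2A. DHRS3 and CRABP2 stayed under the minimum. Summed over the RefSeq span of the gene with 5 kb on either side, CYP26C1 had 75 fragments in fenretinide cells and 147 in vehicle cells, at 0.462 (0.345 to 0.614). CYP26C1 lies beside CYP26A1, and its sum includes the interval at the CYP26A1 start. On the same span scale RXRA was at 0.711 (0.586 to 0.861), DHRS3 at 0.631 (0.483 to 0.821) and EZH2 at 1.11 (0.858 to 1.45).

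None of the 3 measured receptor genes passed the rule. RARG had 283 fragments in fenretinide cells and 344 in vehicle cells, at 0.745 (0.634 to 0.874). RXRG had 290 and 271, at 0.969 (0.818 to 1.15), and RARB 105 and 99, at 0.960 (0.723 to 1.28). Over 131 measured intervals in RARB and 150 kb on either side of it 39 lay below 1, and the summed ratio was 1.15 (1.11 to 1.18), while 1 of these intervals, at the start from which the retinoid-induced transcript is made, had 28 and 48 fragments, at 0.528 (0.319 to 0.859). Of 13 measured genes known to respond to retinoic acid, of 27 listed, CYP26A1 alone was lower and none higher, with a median of -0.31 and 12 members below 0. Over all genes 1.70% were lower and 69.1% lay below 0. GBX2, a homeobox gene, was at 0.554 (0.442 to 0.692), RET, a receptor tyrosine kinase, at 0.695, TBX1 at 0.675 and HOXB1 at 1.01 (0.570 to 1.81).

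Both classic target promoters lay inside measured intervals and carry the paired half-sites themselves. The windows are shown because they place the receptor site within the interval that was counted: each is the 250 bases before a RefSeq start (GRCh38.p14), 5′ to 3′ on the gene's strand, with capitals for the half-sites.
CYP26A1 (chr10:93073643-93073892, plus strand): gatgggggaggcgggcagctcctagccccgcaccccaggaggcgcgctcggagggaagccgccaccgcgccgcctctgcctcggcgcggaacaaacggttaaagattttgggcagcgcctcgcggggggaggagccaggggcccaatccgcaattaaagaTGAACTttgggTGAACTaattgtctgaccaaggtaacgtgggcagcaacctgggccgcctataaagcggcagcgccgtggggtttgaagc
RARB (chr3:25428013-25428262, plus strand): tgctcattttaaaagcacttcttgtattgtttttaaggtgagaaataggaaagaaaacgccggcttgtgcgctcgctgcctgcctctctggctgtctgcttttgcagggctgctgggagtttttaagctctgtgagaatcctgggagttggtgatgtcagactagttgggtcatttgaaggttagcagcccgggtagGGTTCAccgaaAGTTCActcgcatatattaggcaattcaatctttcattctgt
In the CYP26A1 window AGTTCA stood on the minus strand at -90 and -79 from the start, and in the RARB window GGTTCA and AGTTCA stood on the plus strand at -53 and -42. A half-site was AGGTCA (in 12.1% of 35116 windows of the same length), or AGTTCA (8.80%), or GGTTCA (7.16%), or GGGTCA (12.1%), searched on both strands. The 16 pairs of them with 5 bases between were searched likewise. Such a pair occurred in 26 windows (0.0740%), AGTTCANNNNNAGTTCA in 3 and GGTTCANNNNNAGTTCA in 6. The CYP26A1 interval (chr10:93071484-93076905) had 48 fragments in fenretinide cells and 96 in vehicle cells, at 0.453 (0.313 to 0.646). Of the 26 windows 5 lay inside an interval. TRIM31 was at 0.778, LOC105375959 at 0.975 and LOC105376110 at 1.03, so 1 of the 5, CYP26A1, was called lower. Of 6700 measured intervals that hold a promoter window, 3.01% were lower and 0.642% higher. In the second pair the RARB interval had 22 fragments in combination cells and 15 in GSK-126 cells, with a counting interval of 0.743 to 3.11 on the ratio. The CYP26A1 interval had 36 and 41, at 0.897 (0.557 to 1.44), so neither could be placed on a side of 1.

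The largest falls near genes were at a secreted neuronal glycoprotein, an imprinted growth factor, a heterochromatin protein and a developmental repressor. NXPH4, a neurexophilin, had 85 fragments in fenretinide cells and 226 in vehicle cells, at 0.340 (0.262 to 0.439). IGF2, a fetal growth factor, shares its interval with the antisense gene IGF2-AS and had 328 and 766, at 0.388 (0.340 to 0.442). BAHD1, which promotes heterochromatin, had 106 and 270, at 0.355 (0.281 to 0.446). HES3, a repressor of the HES family with roles in neural development, had 145 and 342, at 0.384 (0.314 to 0.467). In each of these 4 the fenretinide library, the deeper of the 2, held fewer fragments. At these depths any gene called lower must show this.

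The rest of the 15 had varied known functions. FGFR3, a receptor tyrosine kinase that is often mutated in bladder cancer, had 119 fragments in fenretinide cells and 263 in vehicle cells, at 0.410 (0.327 to 0.510). IL17C, an epithelial cytokine, had 36 and 95, at 0.343 (0.227 to 0.508). HTRA3, a serine protease, had 90 and 203, at 0.401 (0.310 to 0.517). SRCIN1, an inhibitor of SRC kinase, was at 0.469 (0.415 to 0.529) and ASIC4, from the family of acid-sensing channels, at 0.474 (0.422 to 0.532). SAMD11, which shares its interval with LOC101928801, carried the most fragments of this group with 738 and 1352, at 0.494 (0.451 to 0.541). Noncoding or unmatched loci completed the 15: MIR4462 at 0.310, LOC101929340 at 0.342, CACNA1G-AS1 at 0.409, LOC390937 at 0.423 and MIR3621 at 0.458. Without the TSS limit MIR4462 (0.620), HTRA3 (0.608) and SRCIN1 (0.663) no longer passed. The 15 were ranked by the counting bound nearest to 1 among 126 genes that were lower with at least 100 fragments.

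**Figure D1:**
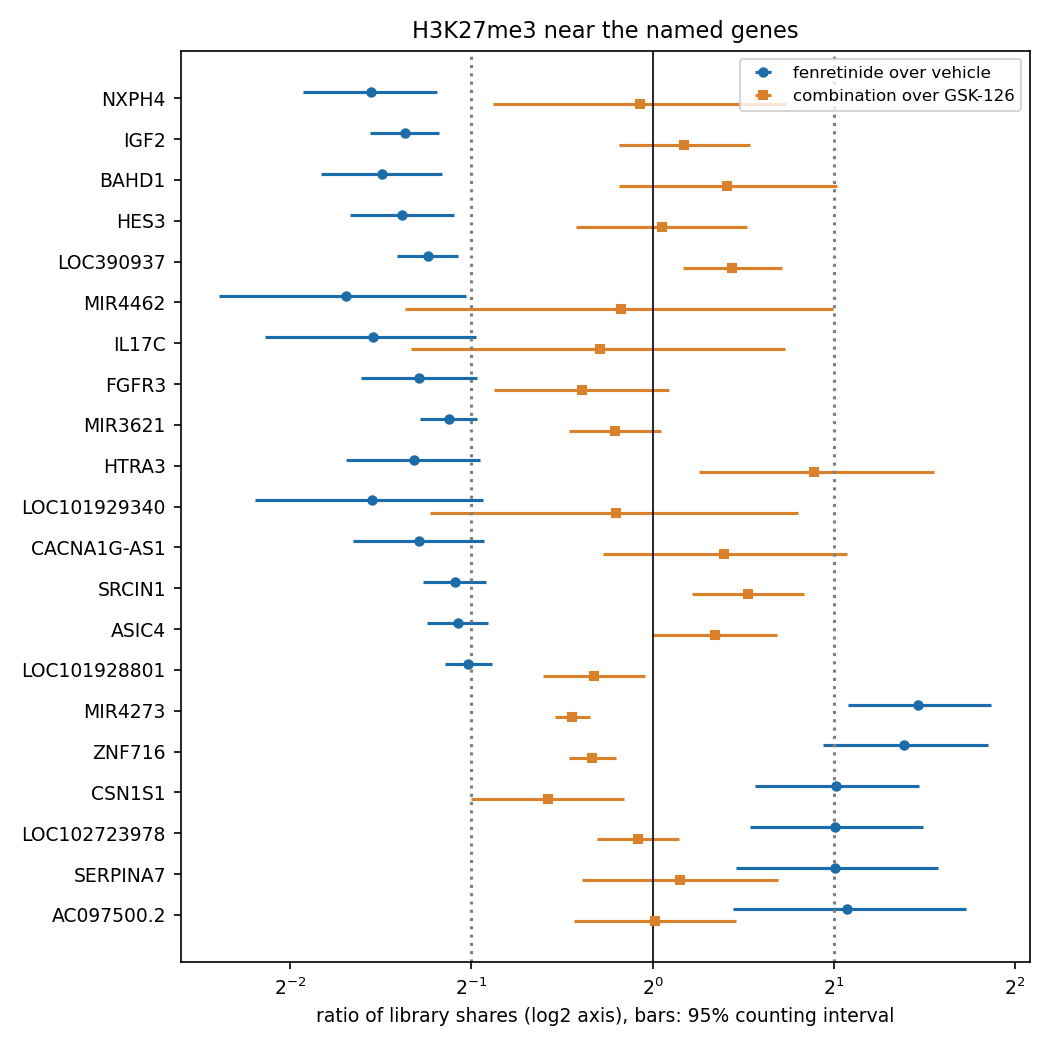
Ratio of library shares (log2 axis) near the 15 largest falls and 6 largest rises, as points with 95% counting intervals, for fenretinide over vehicle (blue) and combination over GSK-126 (orange), with dotted lines at 0.5 and 2. The fenretinide falls reach down to 0.310 and the rises up to 2.76, while the second pair lies closer to 1, with HTRA3 at 1.86 and CSN1S1 at 0.670. The genes were chosen for passing the 2-fold rule in fenretinide over vehicle, which favours this gap.

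The falls ran through neighbouring intervals at several loci. Within 150 kb of IGF2, 18 of 20 measured intervals were below 1 and 3 were lower by the rule. Of all 159127 measured intervals 43.4% had a log2 ratio below 0, 2.16% were lower and 3.31% higher. The median log2 ratio was -0.14 for intervals 1 to 10 kb from a TSS and 0.23 for those beyond 100 kb, so the share over all intervals is a loose comparison. The IGF2 locus had 4119 fragments in fenretinide cells and 5523 in vehicle cells, at 0.675 (0.648 to 0.703). The interval over IGF2 itself (chr11:2131497-2151005) had the lowest ratio of the 20, and a neighbour nearest to INS-IGF2 (chr11:2157454-2170663) had 155 and 319, at 0.440 (0.361 to 0.535). The long interval between IGF2 and H19 (chr11:2041728-2074010) had 1066 and 1316, at 0.733 (0.676 to 0.795). Around FGFR3 all 6 measured intervals were below 1 and 5 were lower, with 195 and 426 fragments in all, at 0.414 (0.348 to 0.492). BAHD1 had 18 of 19 intervals below 1, at 0.610 (0.562 to 0.662), and STRA6 26 of 28, at 0.745 (0.714 to 0.777). CYP26A1 had 17 of 21, at 0.809 (0.761 to 0.860). At IGF2, BAHD1, STRA6 and CYP26A1 the ratio near the gene lay below that of its locus, while at FGFR3 it was 0.410, close to 0.414. Each of these loci surrounds a gene that was lower and includes its intervals, so such an order is favoured by the choice. The same choice favours low locus ratios and high counts of intervals below 1. Near FGFR3 the gene held 119 and 263 of the 195 and 426 fragments, so its 2 ratios largely share fragments.

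**Figure D2:**
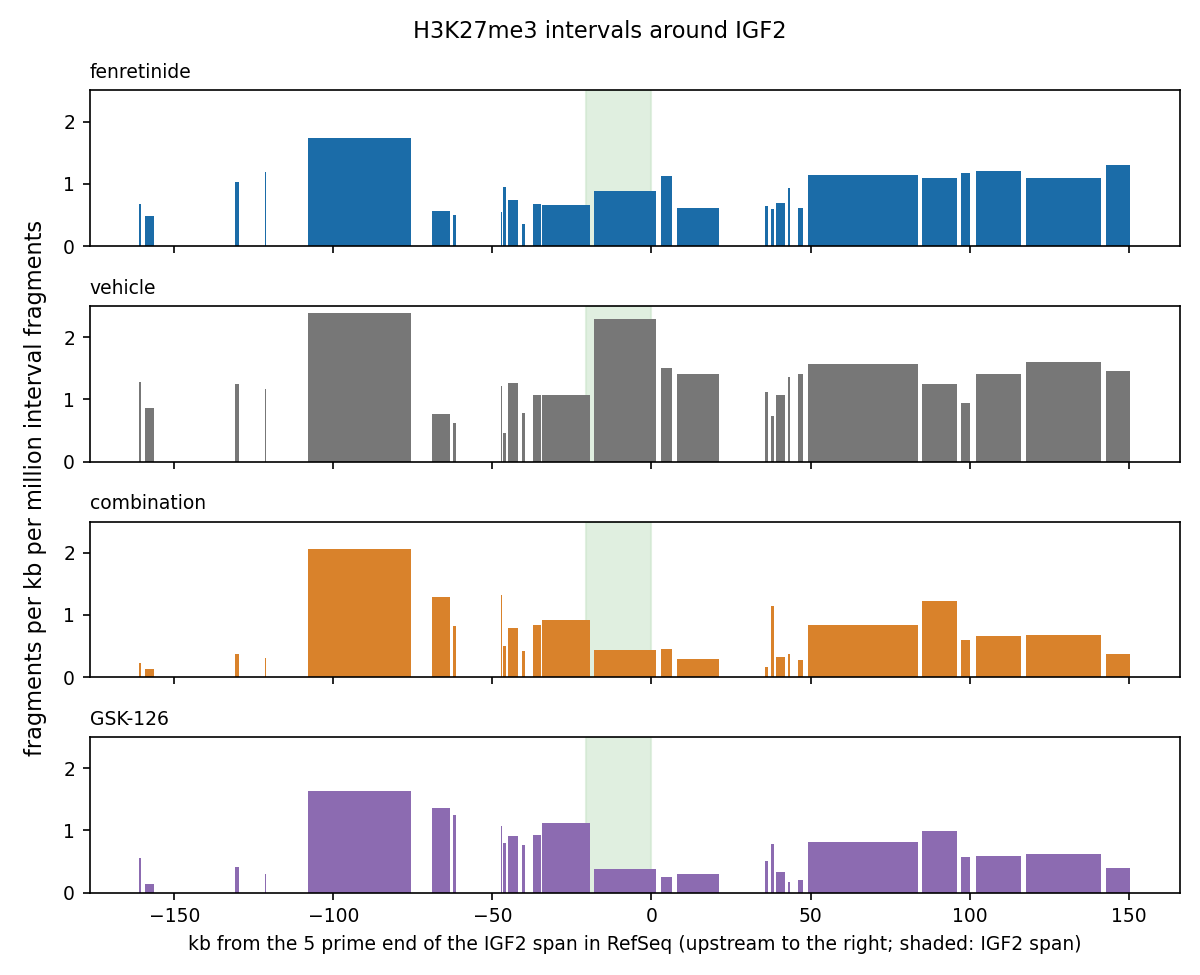
Fragments per kb, scaled to the library's total in all intervals, for each interval within 150 kb of IGF2, against distance from its 5 prime end in kb, with the IGF2 span shaded, for the fenretinide, vehicle, combination and GSK-126 libraries. Over IGF2 the fenretinide bar (328 fragments) stands below the vehicle bar (766), and the combination and GSK-126 bars (136 and 123) are close to each other.

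HOX genes, which set position along the body axis, had the lowest median of the 31 lists, at -0.67, or -0.51 relative to all genes. Of 39 HOX genes 10 were measured, 9 of them below 0, beside 69.1% of all genes below 0 and 1.70% lower. HOXD11 was lower, with 49 fragments in fenretinide cells and 94 in vehicle cells, at 0.472 (0.327 to 0.673). HOXC11 had 115 and 207, at 0.503, HOXD12 35 and 62, at 0.511, and HOXD13 136 and 225, at 0.547, none of which passed. HOXB13 was at 0.623, HOXD10 at 0.634, HOXA13 at 0.645, HOXC12 and HOXC13, which share an interval, at 0.681 and HOXB1 at 1.01. All measured members but HOXB1 belong to the posterior end of their clusters.

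Other developmental regulators lay below the median of all genes with few calls. Over all genes 69.1% lay below 0 and 1.70% were lower. Of 99 measured developmental transcription factors 94 were below 0 and 2 were lower, with a median of -0.44 (-0.29 relative to all genes). LHX3, a pituitary and motor neuron factor, had 356 fragments in fenretinide cells and 664 in vehicle cells, at 0.485 (0.425 to 0.553), and SOX8 447 and 833, at 0.486 (0.432 to 0.546). NEUROD1, a neurogenic factor, stood highest at 1.22 (0.941 to 1.57). Of 26 WNT ligands and antagonists 23 were below 0, with a median of -0.44. WNT4 was lower, with 33 and 72 fragments, at 0.415 (0.266 to 0.635), and so was WNT2B with 17 and 36, at 0.427 (0.225 to 0.781). Without the TSS limit the medians were -0.18 for the transcription factors and -0.25 for WNT genes, and SOX8 (0.516), LHX3 (0.569), WNT4 (0.726) and WNT2B (0.766) were no longer called. All 8 measured HES and HEY genes were below 0, with HES3 the called member and HEY1 at 0.979, and all 9 KLF genes were, with KLF4, an epithelial factor, lower at 0.443 (0.260 to 0.737; 24 and 49 fragments), though at 0.927 without the TSS limit. Of 24 BMP, TGF-beta, hedgehog and NODAL genes none was called. SHH was lowest among them, with 450 and 763 fragments, at 0.534 (0.474 to 0.601).

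Promoter windows of called genes that lay inside their measured interval are shown next, to set the sequence of falls beside that of rises. Capitals mark CpG pairs, and each window is again the 250 bases before the RefSeq start (GRCh38.p14) on the gene's strand.
HOXD11 (chr2:176107030-176107279, plus strand): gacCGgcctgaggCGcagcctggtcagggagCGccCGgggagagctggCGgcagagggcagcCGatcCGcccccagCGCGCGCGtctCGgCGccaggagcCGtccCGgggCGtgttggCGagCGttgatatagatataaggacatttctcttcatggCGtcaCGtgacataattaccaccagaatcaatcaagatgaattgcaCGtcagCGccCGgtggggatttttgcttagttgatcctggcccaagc
FGFR3 (chr4:1793043-1793292, plus strand): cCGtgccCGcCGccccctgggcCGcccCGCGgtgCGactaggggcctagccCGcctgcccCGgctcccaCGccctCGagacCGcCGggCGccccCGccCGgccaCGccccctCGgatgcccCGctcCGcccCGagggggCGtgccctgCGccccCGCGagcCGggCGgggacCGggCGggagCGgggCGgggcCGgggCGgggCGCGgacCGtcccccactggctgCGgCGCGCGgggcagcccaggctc
HES3 (chr1:6243929-6244178, plus strand): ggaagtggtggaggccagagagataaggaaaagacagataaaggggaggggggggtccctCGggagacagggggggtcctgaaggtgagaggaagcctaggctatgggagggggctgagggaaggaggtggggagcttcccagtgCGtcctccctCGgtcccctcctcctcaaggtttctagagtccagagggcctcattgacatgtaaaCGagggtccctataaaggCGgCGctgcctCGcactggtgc
ZNF716 (chr7:57449927-57450176, plus strand): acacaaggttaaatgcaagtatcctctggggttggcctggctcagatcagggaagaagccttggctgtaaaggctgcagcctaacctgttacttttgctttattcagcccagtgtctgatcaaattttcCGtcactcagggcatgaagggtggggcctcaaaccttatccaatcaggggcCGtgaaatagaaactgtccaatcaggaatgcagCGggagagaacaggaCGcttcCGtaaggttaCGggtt
OR4D5 (chr11:123939367-123939616, plus strand): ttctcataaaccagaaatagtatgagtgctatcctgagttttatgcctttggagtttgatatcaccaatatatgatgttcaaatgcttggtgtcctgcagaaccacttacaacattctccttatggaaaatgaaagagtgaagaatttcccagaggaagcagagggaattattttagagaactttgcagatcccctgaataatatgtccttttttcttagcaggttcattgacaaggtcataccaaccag
Windows of genes that fell had 61.6% G and C with 23 CpG pairs at HOXD11, 86.8% with 40 at FGFR3 and 61.2% with 7 at HES3. Windows of genes that were higher had 50% with 6 at ZNF716 and 37.6% with 0 at OR4D5. The median over all 35116 windows was 58% and 11 CpG pairs. These 5 windows are examples and no more. A check over all called genes is void, because 112 of 163 protein-coding genes that were lower (68.7%) had a window, under the 80% it needs. The HOXD11 interval had 49 fragments in fenretinide cells and 94 in vehicle cells, the FGFR3 interval 111 and 226, the HES3 interval 99 and 245, the ZNF716 interval 162 and 56 and the OR4D5 interval, which was not called on its own, 42 and 20.

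Growth factor, imprinted and marker lists sat near or a little below the median of all genes. Over all genes 1.70% were lower and 0.253% higher. Of 31 growth factor genes and of 27 imprinted genes IGF2 was the called member in each, with medians of -0.25 and -0.27. BDNF, a neurotrophin, stood highest of the growth factors with 40 fragments in fenretinide cells and 19 in vehicle cells, at 1.91 (1.08 to 3.48). PPP1R9A, an imprinted gene for a synaptic scaffold, was highest of its list with 70 and 32, at 1.98 (1.29 to 3.11). Of 16 luminal and urothelial markers FGFR3 was lower, and GATA3, a luminal factor, had 81 and 92, at 0.797 (0.584 to 1.09). UPK1B, a uroplakin, was highest at 1.13 (0.946 to 1.36). Of 21 basal and squamous markers TFAP2A was lower with 20 and 48 fragments, at 0.377 (0.212 to 0.648), and CDH3, a cadherin of basal cells, with 77 and 142, at 0.491 (0.367 to 0.652). Among 15 mesenchymal markers SNAI1, a repressor of epithelial genes, was lower with 26 and 60, at 0.392 (0.238 to 0.631), and 9 were below 0. Without the TSS limit CDH3 was at 0.798 and SNAI1 at 0.686, neither called. Of 47 blood lineage genes, with 46 distinct interval sets, 6 were lower, a larger share than over all genes. Among them were the T cell kinase LCK at 0.448 and the leukocyte protein LSP1 at 0.451. The B cell receptor gene CD79A was at 0.492, and HBA1 and HBA2, which share an interval, at 0.495. The blood median was -0.26.

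Lists of sphingolipid, stress, apoptosis, cell cycle, Polycomb and antigen presentation genes held few calls. Over all genes 1.70% were lower, 0.253% were higher and 69.1% lay below 0. Of 24 genes of ceramide and sphingolipid metabolism none was called, and the median was -0.22. SMPD5 was lowest, with 108 fragments in fenretinide cells and 178 in vehicle cells, at 0.549 (0.428 to 0.701). DEGS1, named here after its value was seen, had 166 and 133, at 1.13 (0.894 to 1.43). Of 14 unfolded protein and oxidative stress genes ATF3, a stress-induced factor, was lower with 83 and 165, at 0.455 (0.345 to 0.596), and none was higher. Of 14 apoptosis genes none was called, and BMF, a pro-apoptotic BH3-only gene, was lowest at 0.637 (0.529 to 0.767). Of 13 cell cycle inhibitors and tumour suppressors KLF4 was lower, with a median of -0.41. Of 17 Polycomb subunit genes none was called, and CBX8, which reads H3K27me3, was lowest with 334 and 603 fragments, at 0.501 (0.437 to 0.574). Of 38 antigen presentation and interferon genes none was called, and 35 were below 0.

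Large gene families held few calls, beside 1.70% of all genes lower and 0.253% higher. Potassium channel genes KCNJ11 (0.453) and KCNC4 (0.487) were lower among 75, the keratin gene KRT81 (0.432) and KRTAP5-AS1 (0.275) among 78, and CYP21A2 (0.439) with CYP26A1 among 55 cytochrome P450 and UGT genes. CYP21A2 has a near-identical pseudogene, so its count is uncertain. COL9A3 (0.478) was lower among 29 collagen genes, SLC17A7, a vesicular glutamate transporter (0.497), among 196 solute carriers and GRIN2D, a glutamate receptor subunit (0.421), with NXPH4 among 50 synapse genes. SLC2A3, the neuronal glucose transporter GLUT3, was higher, with 56 fragments in fenretinide cells and 18 in vehicle cells, at 2.82 (1.63 to 5.09). Of 33 beta-defensin genes none was called. Without the TSS limit KCNJ11 (0.774), KCNC4 (0.863), COL9A3 (0.517) and SLC2A3 (1.09) were no longer called, and COL9A3 was at 0.556 within 2 kb.

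**Figure D3:**
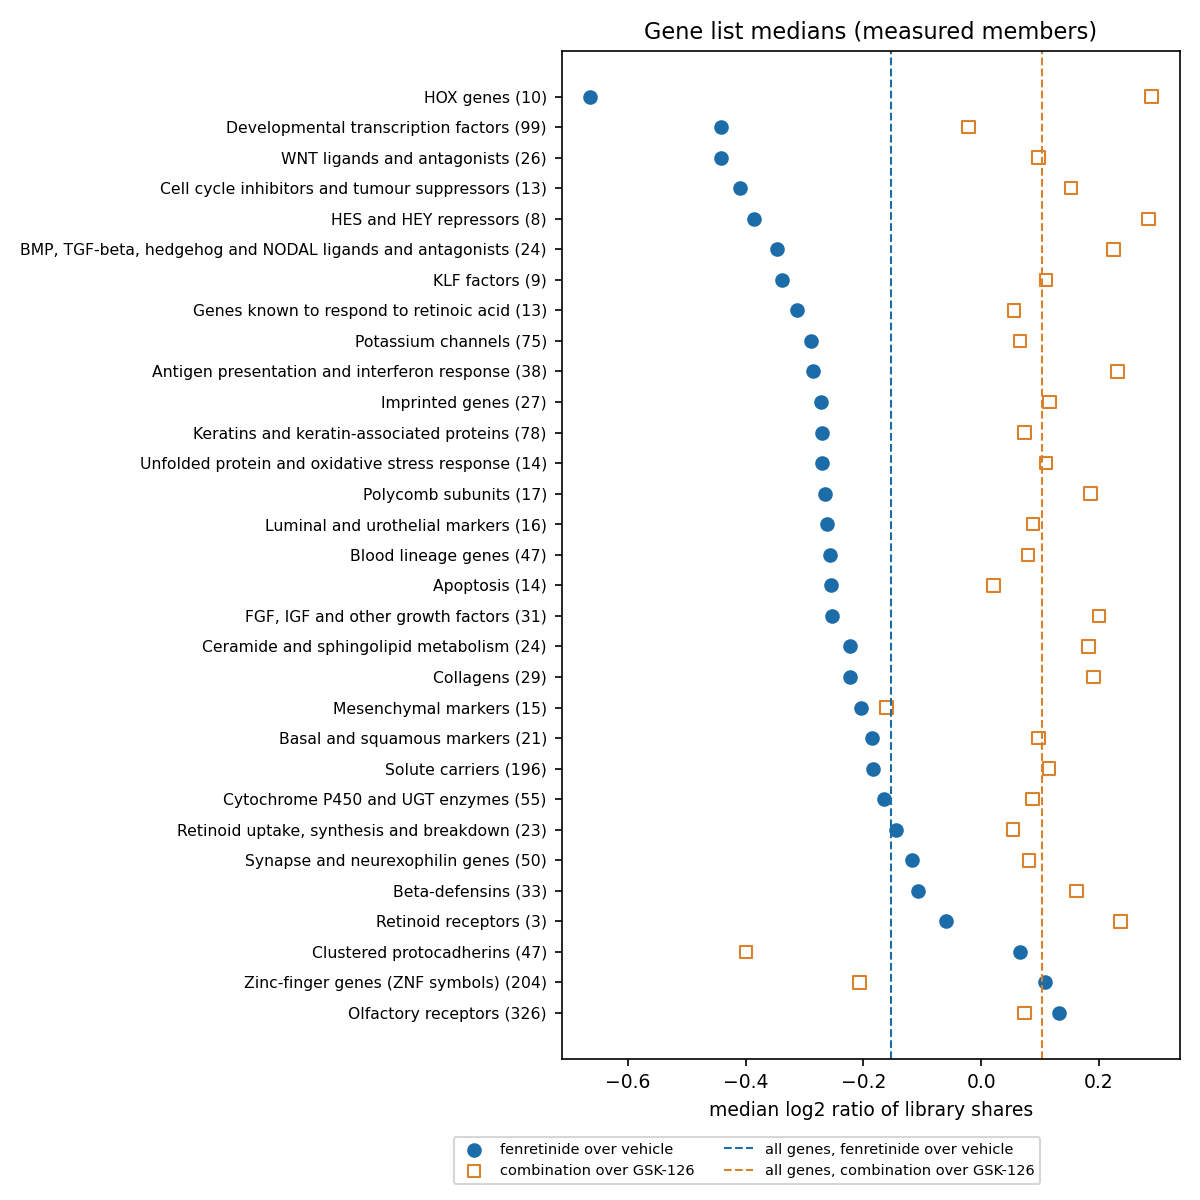
Median log2 ratio of the measured members of each of 31 gene lists (number measured in brackets), for fenretinide over vehicle (filled) and combination over GSK-126 (open), with dashed lines at the medians of all genes, -0.15 and 0.10. HOX genes are lowest for fenretinide over vehicle at -0.67 and stand at 0.29 for combination over GSK-126, where protocadherins are lowest at -0.40.

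Rises near genes were few and 6 had at least 100 fragments. MIR4273, a microRNA gene, had 223 fragments in fenretinide cells and 73 in vehicle cells, at 2.76 (2.11 to 3.65), in an interval of 94558 bp. ZNF716, a zinc-finger gene beside the centromere of chromosome 7, had 162 and 56, at 2.62 (1.92 to 3.61). CSN1S1, a milk casein gene, had 136 and 61, at 2.02 (1.48 to 2.78). SERPINA7, the thyroxine-binding globulin gene, had 91 and 41, at 2.01 (1.38 to 2.98), and the unmatched locus AC097500.2 had 72 and 31. LOC102723978 was at 2.01 (1.45 to 2.81). The vehicle library held 31 to 73 fragments at these 6. Under each of the 4 other scalings CSN1S1, LOC102723978, SERPINA7 and AC097500.2 no longer reached 2, nor did these 4 or ZNF716 (1.70) without the TSS limit. ZNF716 was at 1.98 with low-density scaling to the 2 libraries.

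Olfactory receptors, ZNF genes and protocadherins stood above the median of all genes. Olfactory receptor genes had a median of 0.13, or -0.27 with low-density scaling to the 2 libraries, and 1 of 326 was higher: OR4D5, with 69 fragments in fenretinide cells and 29 in vehicle cells, at 2.15 (1.38 to 3.45), which lost its call with TMM, both low-density scalings and both other TSS limits. Genes with ZNF symbols had a median of 0.11, but -0.01 with TMM and -0.29 and -0.02 with low-density scaling to the 2 and to the 4 libraries, and 1 of 204 was higher (ZNF716) and 1 lower (ZNF706, 27 and 59 fragments, at 0.414, and at 0.795 without the TSS limit). Clustered protocadherins had a median of 0.07, but -0.04 with DESeq2, -0.05 with TMM and -0.34 and -0.06 with the low-density scalings, and 0 of 47 were called. Neighbours in these families share intervals, with 296 distinct sets for the olfactory receptors, 171 for ZNF genes and 19 for protocadherins. Relative to all genes, which no scaling alters, olfactory receptors stood at 0.29, ZNF genes at 0.26 and protocadherins at 0.22. In combination over GSK-126 the medians of the same genes were 0.07 for olfactory receptors, -0.21 for ZNF genes and -0.40 for protocadherins, beside 0.10 for all genes.

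In the second pair of libraries the genes that were lower with fenretinide alone lay on both sides of 1, and most of those that were higher lay below 1. Of the 13547 genes called neither way with fenretinide alone, 35.4% lay below 1 there, beside 45.5% of the lower and 71.4% of the higher genes. These shares include genes with too few fragments to be measured in that pair. Both called sets were chosen by their ratio in the first pair, so the gap between pairs is a description. Of the 235 genes that were lower with fenretinide alone, 0 were lower in combination cells relative to GSK-126 cells, where 22 of 11965 genes were lower (0.184%) and 51 higher (0.426%), and 144 of the 235 had too few fragments to be measured there. A count of 0 in 91 is near that background. Of the 91, with at least 50 fragments in that pair, 48 were below 1 and 43 above. The counting interval of the ratio between the 2 ratios excluded 1 for 76 of those 91. IGF2 had 136 fragments in combination cells and 123 in GSK-126 cells, at 1.13 (0.879 to 1.45). HES3 had 78 and 77, at 1.03 (0.746 to 1.44), and BAHD1 56 and 43, at 1.33 (0.878 to 2.03). At these 3 genes both libraries with GSK-126 held fewer fragments than either library without it. FGFR3 had 65 and 87, at 0.763 (0.545 to 1.06), and CYP26A1 54 and 70, at 0.788 (0.542 to 1.14). HTRA3 went the other way, with 60 and 33, at 1.86 (1.20 to 2.93). Of the 35 genes that were higher with fenretinide alone, 9 were not measured in the second pair. The other 26 had a median log2 ratio of -0.27, with 22 below 1, 4 above and 1 lower by the rule. That gene, named after its value was seen, was RNA28S5, a ribosomal RNA gene with near-identical copies, so its count is uncertain. MIR4273 carried 1538 fragments in combination cells and 2136 in GSK-126 cells, at 0.736 (0.689 to 0.786), and ZNF716 850 and 1094, at 0.794 (0.725 to 0.869). Both libraries with GSK-126 thus held more at the 2 genes than either library without it. HOX genes had a median of 0.29 and developmental transcription factors one of -0.02 in combination over GSK-126, over the members measured in the first pair. HOXB1, HOXB13, HOXD11 and HOXD12 had under 50 fragments in the second pair. The HOX median there is the value of the interval that HOXC12 and HOXC13 share.

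Across all intervals 5266 of 159127 were higher in fenretinide cells (3.31%) and 3432 lower (2.16%), a split that was 3453 and 4971 with DESeq2, 3281 and 5122 with TMM and 1007 and 12427 with low-density scaling to the 2 libraries. The low-density scaling to 4 libraries gave 3113 and 5337. In combination over GSK-126, 2.48% of 152518 measured intervals were higher and 1.82% lower. Intervals with a peak in both libraries held 91.1% of the fenretinide fragments and 92.4% of the vehicle fragments, and of those 108178 intervals 0.591% were higher and 0.761% lower. The ratio depended on how dense the mark was. Intervals with 0 to 5 fragments per kb in the mean of both libraries had a summed ratio of 1.34 and those with 5 to 10 had 1.14. Those with 30 to 50 had 0.927, and the 29 intervals over 100 had 1.26. In combination over GSK-126 the same bins had 0.869, 0.942, 1.06 and 0.835, on the other side of 1 in each. The bin of 10 to 15 fragments per kb, with 52487 intervals, was above 1 in both pairs, at 1.02 and 1.01.

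Intervals near promoters had less of the fenretinide library. Of 1493 intervals classed at a promoter 1.21% were higher and 8.98% lower, with 0.972% of the fenretinide fragments and 1.15% of the vehicle fragments, at 0.844 (0.839 to 0.850). Exon intervals were at 0.871 and those at transcript ends at 0.903, while intergenic intervals were at 1.01. By distance, intervals within 1 kb of a TSS were at 0.862 and those beyond 100 kb at 1.10. In combination over GSK-126 the promoter intervals were at 1.00 (0.996 to 1.01) and those beyond 100 kb at 0.976. Length mattered less: the ratio was 1.04 for intervals of 5 to 10 kb and 0.949 for those over 100 kb, where 1 of 653 was higher and 0 lower.

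**Figure D4:**
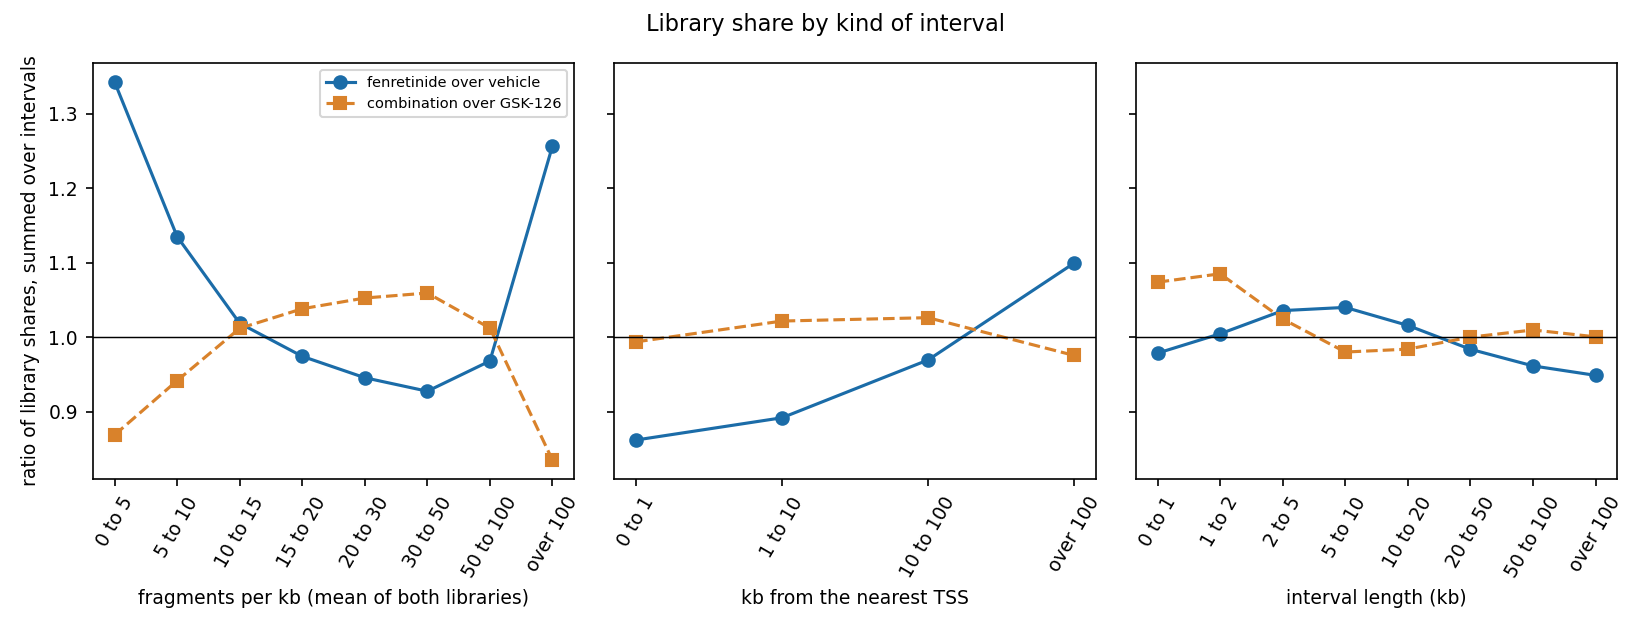
Ratio of library shares summed over measured intervals, by fragments per kb in the fenretinide and vehicle libraries, by distance to the nearest TSS and by interval length, for fenretinide over vehicle (circles) and combination over GSK-126 (squares). For fenretinide over vehicle the ratio is 1.34 in the sparsest bin and 0.862 within 1 kb of a TSS, against 0.869 and 0.994 in the other pair.

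Chromosomes differed by more than counting error. Chromosome 22 was at 0.876 (0.871 to 0.880), chromosome 17 at 0.887 (0.883 to 0.890), chromosome 19 at 0.904 (0.900 to 0.907) and chromosome 20 at 0.935 (0.933 to 0.938). The X chromosome was at 1.09 (1.09 to 1.10), chromosome 4 at 1.06 and chromosome 5 at 1.05. The median gene followed, at -0.30 on chromosome 22, -0.29 on chromosome 17 and -0.02 on the X chromosome. In combination over GSK-126 chromosome 17 was at 1.04 and chromosome 22 at 0.972, while chromosome 19 was at 0.927. Unplaced and alternate contigs, with 475 intervals, were at 1.32 (1.30 to 1.33), against 0.784 in combination over GSK-126. Counting intervals here are narrow because counts are large, and they leave out any variation between libraries.

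**Figure D5:**
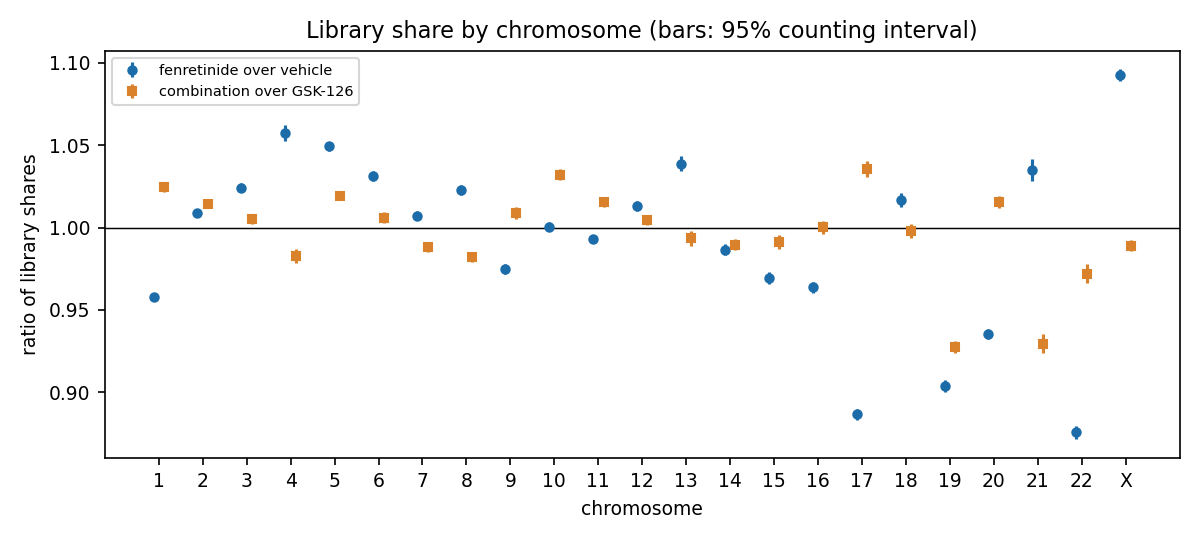
Ratio of library shares summed over measured intervals of each chromosome with 95% counting intervals, for fenretinide over vehicle (circles) and combination over GSK-126 (squares). For fenretinide over vehicle, chromosomes 22, 17 and 19 lie lowest, at 0.876, 0.887 and 0.904, and X highest, at 1.09.

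The 5 intervals with the largest rises lay far from annotated genes or outside the peaks. Of the 5, 3 had no peak in either list and so no annotation, and the other 2 lay over 100 kb from a TSS. The first (chr17:26885308-26885969) had 175 fragments in fenretinide cells and 39 in vehicle cells, at 4.06 (2.86 to 5.90). Intervals on chromosome 21 (chr21:7915746-7970296) and chromosome 22 (chr22:12361645-12384357) followed with 590 and 170 fragments, at 3.14 (2.64 to 3.75), and with 226 and 63, at 3.25 (2.45 to 4.36). A pair on chromosome 16 (chr16:46386206-46392025 and chr16:46393288-46398956) had 4744 and 1664, at 2.58 (2.44 to 2.73), and 1047 and 360, at 2.63 (2.33 to 2.98). All 5 held more in combination and GSK-126 cells, with 24427 and 28053 fragments in the larger chromosome 16 interval. Handling of reads that map to several places is not given in the sources used here. Both chromosome 16 intervals were at 1.95 and 1.99, no longer called, with low-density scaling to the 2 libraries. The 5 largest interval falls were those of NXPH4, IGF2, BAHD1 and HES3 and an interval nearest to PDE4A, a cAMP phosphodiesterase gene (chr19:10417104-10423594), with 193 and 458, at 0.381 (0.321 to 0.452).

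Peak lists overlapped for most of their length. The authors' list for fenretinide held 234815 peaks and that for vehicle 212277, called per library. Of the fenretinide peaks 28.5% (66830) overlapped no vehicle peak, and of the vehicle peaks 20.9% (44403) overlapped no fenretinide peak. Overlapped sequence made up 72.4% of the fenretinide peak length and 76.7% of the vehicle peak length. Unmatched peaks were short and weak: fenretinide peaks without a match had a median length of 699 bp and a median deposited score of 14, against 2194 bp and 22 for those with one. Vehicle peaks without a match had 633 bp and 15, against 1972 bp and 22. Of unmatched peaks 0.624% in the fenretinide list and 1.25% in the vehicle list were classed at a promoter. Where only peaks with a score of at least 20 were asked for a match among all peaks, 10.5% of those of fenretinide and 7.64% of those of vehicle had none.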

How the data were processed

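H3K27me3 ChIP-seq libraries of T24 cells were used, 1 per condition. The authors deposited raw fragment counts for consensus intervals, made with featureCounts 2.0.1 per the file headers, which give a minimum overlap fraction of 0.2 and counting without strand. The submitters' processing notes name MACS2 2.1.0, and the peak files, 1 per library, carry a score deposited by the authors (at least 10, scale not stated). Coordinates are on GRCh38 (hg38), which those notes list. Aligner, peak-calling control and handling of multiply mapped reads are not given in the sources used here. Interval starts in the file count from 0 and were made 1-based.

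Ratios of library shares were computed from the counts, with 95% exact Clopper-Pearson intervals and log2 values with a pseudocount of 0.5. The call rule was run on simulated data with counting error only and changes beyond the call limits at genes with many fragments. It therefore does not bear on calls at sparse genes or near the limits, or on variation between libraries. Of 13817 measured genes 11362 matched a RefSeq symbol or synonym. Genes that share an interval each count it. A ratio between 2 ratios has a log-normal counting interval. Named genes were the 15 largest falls and up to 10 largest rises (6 existed) with at least 100 fragments, the called members (up to 4), highest and lowest of each list, and 20 genes named whatever their values. Named intervals were the 5 largest each way with at least 200 fragments. Members and lists were chosen with earlier results of these data known. HOX genes were all given. A few other members are named for their role, with values seen. Alternatives were DESeq2 1.42.0 and edgeR 4.0.16 TMM factors (used for scaling only), a factor from the sparsest 25% of intervals, by fragments per kb, and other minimums, ratios, TSS distances and peak overlaps. The software was R 4.3.3 and Python 3.11.15 with matplotlib 3.10.9, scipy 1.17.1 and pandas 2.3.3. Promoter sequences are from RefSeq GRCh38.p14.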

Additional observations from a re-analysis of the deposited data

Results flagged for a closer look

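For 12 of the 21 named falls and rises, fenretinide over vehicle and combination over GSK-126 lay on opposite sides of 1, and the counting interval of the ratio between the 2 ratios excluded 1. The 21 were chosen for extreme ratios in the first pair, and the ratio between the 2 ratios reuses those values, so the choice favours a gap. With 1 library a group the difference was not tested beyond counting error, and differences between libraries and between treatments cannot be told apart. Among falls with fenretinide alone, that ratio of fenretinide over vehicle to combination over GSK-126 was 0.218 for HTRA3, 0.269 for BAHD1, 0.313 for LOC390937, 0.314 for CACNA1G-AS1, 0.326 for SRCIN1, 0.344 for IGF2, 0.372 for HES3 and 0.375 for ASIC4. Among rises it was 3.74 for MIR4273, 3.28 for ZNF716, 2.99 for CSN1S1 and 2.11 for LOC102723978.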

How the results depend on the processing

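Directions of all named called genes and intervals held under the scalings tried (DESeq2, TMM, scaling to low-density intervals of both libraries, and, chosen after seeing the data, of all 4 libraries) and under the TSS limits in which they were measured. Under the scalings this was fixed in advance, because each lowered every log2 ratio by at most 0.40 and a call needs at least 2-fold. Calls depended on the settings. Genes called higher and lower were 35 and 235 as reported, 19 and 360 with DESeq2, 17 and 380 with TMM, 5 and 1316 with low-density scaling over both libraries and 16 and 404 over 4 libraries. They were 13 and 127 at a minimum of 100 fragments, 105 and 418 at 20 fragments and 222 and 1268 at a ratio of 1.5, and within 2 kb of the TSS 20 were higher. No TSS limit (46 and 178) and, chosen after seeing the data, intervals from peaks of all 4 libraries (50 and 223) changed them by less than 1.5 times. Intervals called higher and lower were 5266 and 3432 as reported, 3453 and 4971 with DESeq2, 3281 and 5122 with TMM, 1007 and 12427 with low-density scaling over both libraries and 3113 and 5337 over 4. They were 1298 and 835 at 50 fragments, 8969 and 6581 with no minimum, 9910 and 6694 at a ratio of 1.5 and 639 and 823 where both libraries had a peak.

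Of the named genes, calls were lost for 23 without the TSS limit, 2 within 2 kb, 4 with DESeq2, 5 with TMM, 6 with low-density scaling over both libraries and 5 over 4. In the same order the result stayed the same for 34, 27, 53, 52, 48 and 52 named genes. These include genes that were never called and had no call to lose. Fewer named genes were measured within 2 kb than in the other settings, so the 2 lost there are no sign of stability. CYP26B1 was called lower with low-density scaling over both libraries, at 0.415.

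Unmatched shares of fenretinide and vehicle peaks were 45.6% and 36.8% when at least 50% of a peak had to overlap, 26.1% and 24.8% with a score of at least 20 in both lists and 10.5% and 7.64% for such peaks against all peaks. Low-density intervals over both libraries held a fenretinide or vehicle peak in 14.1% of cases, and those over 4 libraries in 42.3%. No paired analysis was possible because each condition had 1 library. A correction for GC content was not run, since no genome was used here. Depth limits single genes: near 50 fragments a counting interval spans 2-fold or more.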
